A study of Mus musculus with 16 samples.

Results

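The comparison described here is Head against Tail within mouse embryos that lack Gpr161, at E10.5. Its members are the 4 libraries labelled Head-Gpr161 KO and Tail-Gpr161 KO, 2 of each, out of 16 libraries in the series. Head is the embryo above the third branchial arches and Tail is the embryo below the forelimbs. The groups used are Head and Tail of Gpr161 KO and, to show how the parts differ without the mutation, Head and Tail of wild type (WT), again with 2 libraries of each. The Gpr161 KO and WT comparisons share no library. Fuz KO and Fuz;Gpr161 DKO embryos, the other groups of the series, entered the gene filter, the scaling and the estimate of spread. By a chi-square on counts, their replicates differed more from each other. The chi-square per gene between the libraries of a group was 182 and 105 in Head and Tail of Fuz KO and 62.4 and 58.6 in those of DKO. It was 31.4 and 23.0 in Head and Tail of Gpr161 KO and 10.2 and 22.8 in those of WT. The Pearson r of log2 CPM between replicates, across genes, was lower in Fuz KO alone, with 0.961 in Head and 0.966 in Tail. For Head and Tail it was 0.980 and 0.982 in DKO, 0.980 and 0.981 in Gpr161 KO, and 0.983 and 0.981 in WT. No group was treated. The labels name neither the Gpr161 allele, the strain nor the number of embryos behind a library. The p-values therefore measure the spread between these samples, which may be technical.

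Gpr161 is a receptor of the primary cilium that keeps protein kinase A active there and so holds back Hedgehog signalling. Without it the Gli transcription factors are turned towards activators, and in mouse embryos ventral cell types of the neural tube spread dorsally. Position along the body axis is set by other genes, such as Otx2 and other homeobox genes in the head and the clustered Hox genes behind it. Cells of the tail bud, which carry T and Cdx genes, still add new tissue at this stage.

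Gpr161 itself had 4.21 and 4.31 CPM in Head and 4.98 and 4.08 CPM in Tail of Gpr161 KO, against 55.0 and 54.0 CPM in Head and 46.8 and 51.5 CPM in Tail of WT. CPM are counts per sequencing depth, with TMM-scaled library totals, not adjusted for gene length. The 4 Gpr161 KO libraries held between 39062489 and 43290460 counts. Library 1 of each part of Gpr161 KO had almost no Xist and library 2 had much, with 0.739 and 879 CPM in Head and 0.521 and 977 CPM in Tail. The libraries of 1 number thus share a sex, and they deviated together across genes. A fit with the number as a block within each genotype, called the blocked fit, is quoted beside named genes whose printed call it changes and beside printed list counts that it moves by over 1.5 times. Head library 1 stood apart in heart muscle RNA. In it 24 cardiomyocyte markers summed to 2899 CPM, against 645 CPM in Head library 2 and 96.4 and 74.0 CPM in the Tail libraries. In bulk tissue, fewer cells of a type and less RNA per cell cannot be told apart.

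Of 21284 genes tested with edgeR, 1475 differed between Head and Tail of Gpr161 KO at an adjusted p under 0.05 (6.93%), and such genes are referred to as called. Among them, 1000 were higher in Head (4.70%) and 475 were lower (2.23%). The same comparison in WT called 802 genes (3.77%), with 431 higher (2.02%) and 371 lower (1.74%). The lists shared 540 genes, all with the same direction, which is 36.6% of the Gpr161 KO calls and 67.3% of the WT calls. A further 821 genes called in Gpr161 KO had the same sign in WT without a call there, and 114 had the opposite sign. The difference of the comparisons, Head over Tail in Gpr161 KO minus Head over Tail in WT, was called for 20 genes (0.0940%). It was higher for 16 (0.0752%) and lower for 4 (0.0188%).

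The number of calls in Gpr161 KO rests on all 4 libraries. It was 663 higher and 237 lower without Head library 1, and 445 and 198 without Head library 2. It was 294 and 206 without Tail library 1, and 350 and 242 without Tail library 2. The blocked fit called 2215 higher (10.4%) and 1546 lower (7.26%) in Gpr161 KO, 17.7% in all, 1100 (5.17%) and 907 (4.26%) in WT, 9.43% in all, and 178 (0.836%) and 39 (0.183%) for the difference, 1.02% in all. In what follows, log2 fold changes are Head over Tail with their standard error, from edgeR with Benjamini-Hochberg adjustment over all genes tested, and list medians stand beside a median of 0.00 over all genes in Gpr161 KO and -0.02 in WT.

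**Figure D1:**
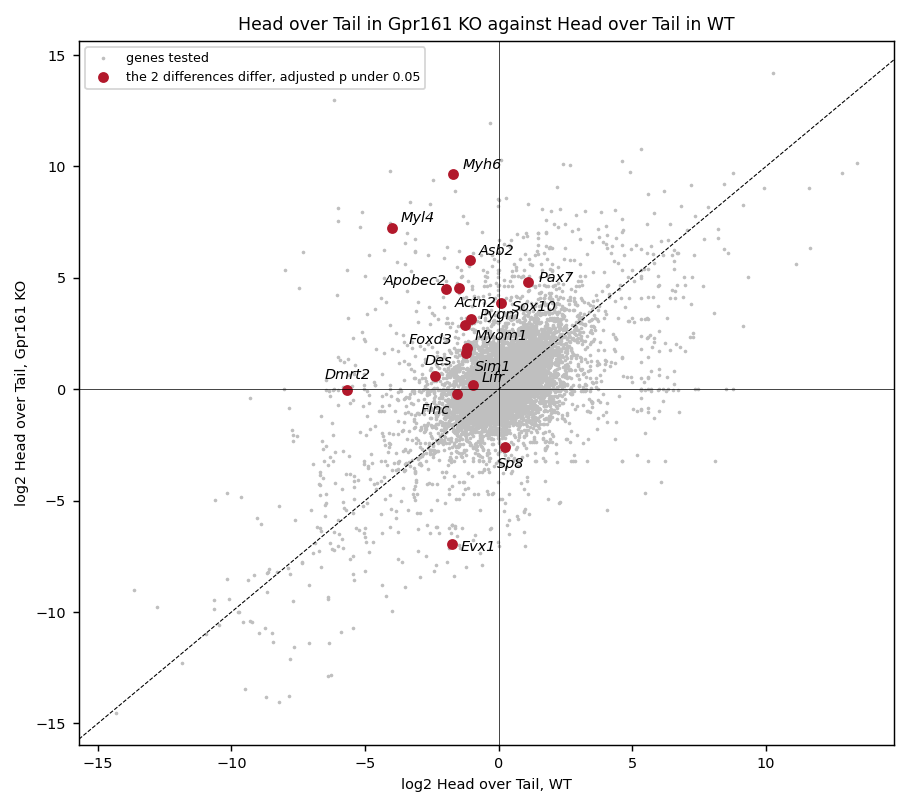
Log2 fold change of Head over Tail for each tested gene, in WT (horizontal axis) and in Gpr161 KO (vertical axis), each from 2 Head and 2 Tail libraries. Most genes lie near the origin, and 17 of the 20 genes whose difference itself was called are marked and named, away from the dashed line of equal values. Fitted values of genes with no count in a group depend on a prior count.

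**Figure D2:**
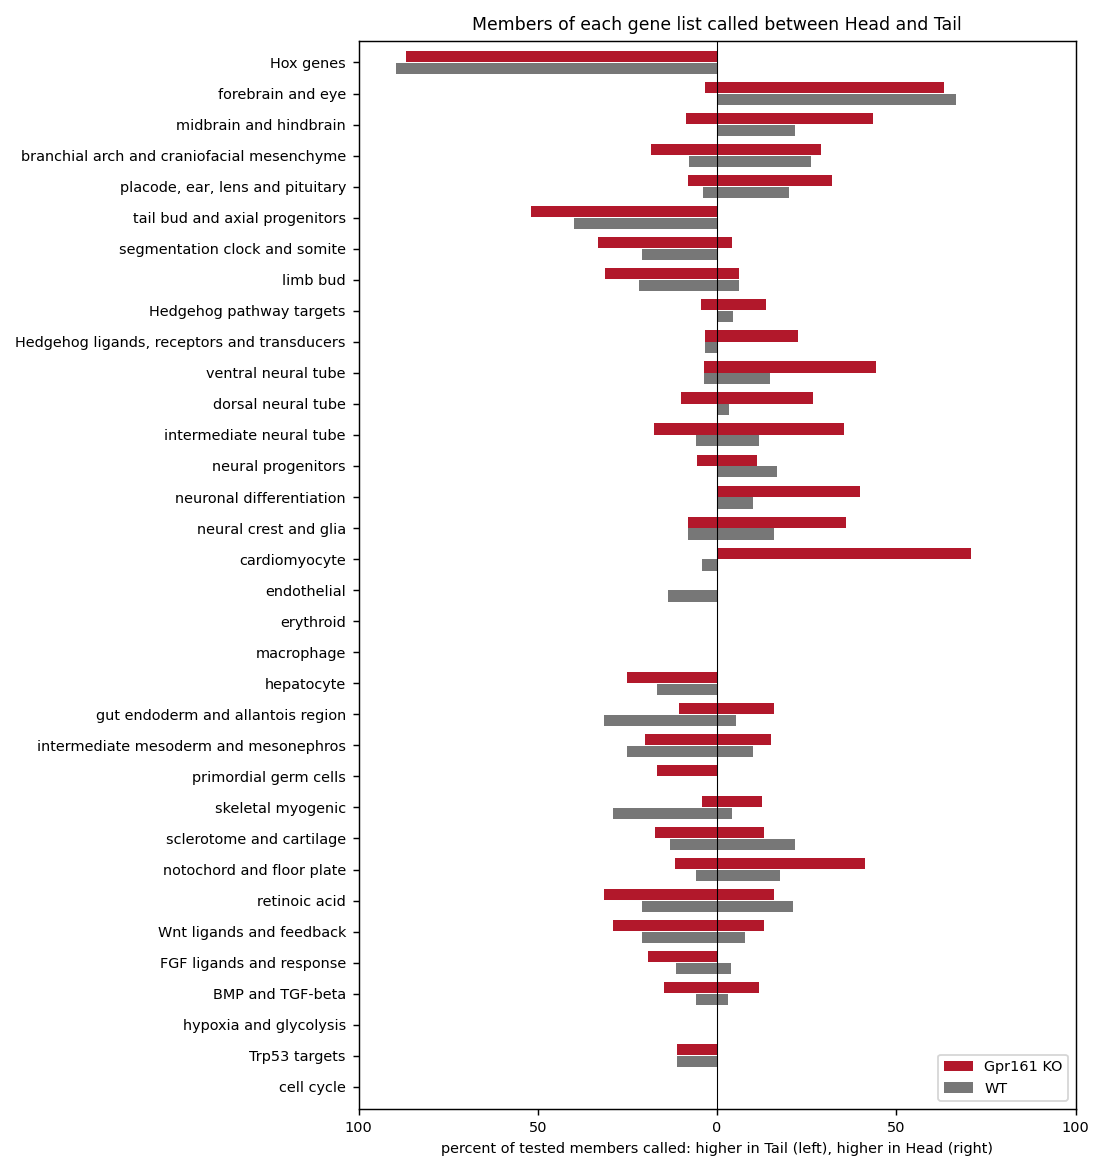
Members of each gene list called higher in Tail (bars to the left) or higher in Head (bars to the right), as percent of the members tested, in Gpr161 KO (red) and WT (grey). In the Gpr161 KO calls shown, made without the block, the Hox and tail bud lists had members lower in Head alone, the cardiomyocyte and neuronal lists members higher in Head alone, and the endothelial and erythroid lists none.

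The Hox genes, which give the body behind the head its regional identity, were nearly all lower in Head. Of 38 tested, 33 were lower in Gpr161 KO and none was higher. Their median log2 fold change was -9.45, or -8.73 with genes at 0 set to a floor of 3 counts. In WT 34 were lower. Head and Tail libraries of Gpr161 KO did not overlap for 37 of the 38 (58.6% of all genes tested did not). In 10 of them both Head libraries had no count. The difference between Gpr161 KO and WT was called for none of the 38 in edgeR with the main settings, with 3 higher and 4 lower at an unadjusted p under 0.05 and 2 lower in DESeq2. Of all the other settings, 1 called some members higher and 3 called some lower. Over the 38 the difference ranged from -6.58 to 5.65 on the log2 scale. Where Head had few or no counts, it depends on those counts or on a prior count. The lack of a call there does not show that the genotypes were alike.

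The separation was wide at the posterior end of the clusters, which lie on chromosomes 6, 11, 15 and 2. Hoxc10, active where the hindlimb and lumbar region form, had 0 and 0 CPM in Head, against 71.1 and 67.1 CPM in Tail of Gpr161 KO. Head was at least 1927-fold lower (adjusted p = 3.0e-08). Hoxd13, which acts at the end of the tail and limbs, had 0.0493 and 0.0465 CPM in Head, against 54.2 and 87.1 CPM in Tail (log2 fold change -10.44 ± 0.62, adjusted p = 3.5e-06). The parts were far apart for both genes. Further genes with no count in Head were Hoxd11, at least 1402-fold lower there, Hoxd9, at least 1199.8-fold lower, and Hoxa7, at least 1158-fold lower. Hoxc8, of the thoracic region, kept 2 counts in Head, and the Tail to Head ratio was 2967, counting interval 821 to 24506.

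Members at the anterior end of the clusters had reads in both parts. Hoxa2, which patterns the second branchial arch, had 8.62 and 12.4 CPM in Head, against 11.2 and 9.27 CPM in Tail (log2 fold change 0.04 ± 0.33, adjusted p = 0.98). It was the 1 member whose libraries overlapped. Hoxb1, the rhombomere 4 gene, had 16.0 and 10.47 CPM in Head, against 45.8 and 21.8 CPM in Tail (log2 fold change -1.35 ± 0.70, adjusted p = 0.34, and 0.049 in the blocked fit). Hoxb2, which follows it in the hindbrain, had 4.51 and 3.70 CPM in Head, against 11.3 and 8.42 CPM in Tail (log2 fold change -1.26 ± 0.46, adjusted p = 0.14, and 0.0031 in the blocked fit). Both Tail libraries were above both Head libraries for each. Hoxa3, of the third arch and neck, had 2.59 and 5.12 CPM in Head, against 21.8 and 19.8 CPM in Tail and was called (log2 fold change -2.43 ± 0.36, adjusted p = 0.0013). Hoxa4, with 0 and 0.372 CPM in Head, against 7.13 and 5.01 CPM in Tail, was called (log2 fold change -4.98 ± 0.88, adjusted p = 0.010) but not in the blocked fit (adjusted p = 0.18). Hoxd3 was not called (log2 fold change -3.35 ± 0.93, adjusted p = 0.057). Hoxb13, the most posterior gene of its cluster, had no count in Head, and 0.379 and 3.82 CPM in Tail. Tail library 2 held most of its reads, and its adjusted p was 0.051, or 0.00015 in the blocked fit. The Hoxa4 call was lost without Tail library 1 (adjusted p = 0.065).

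**Figure D3:**
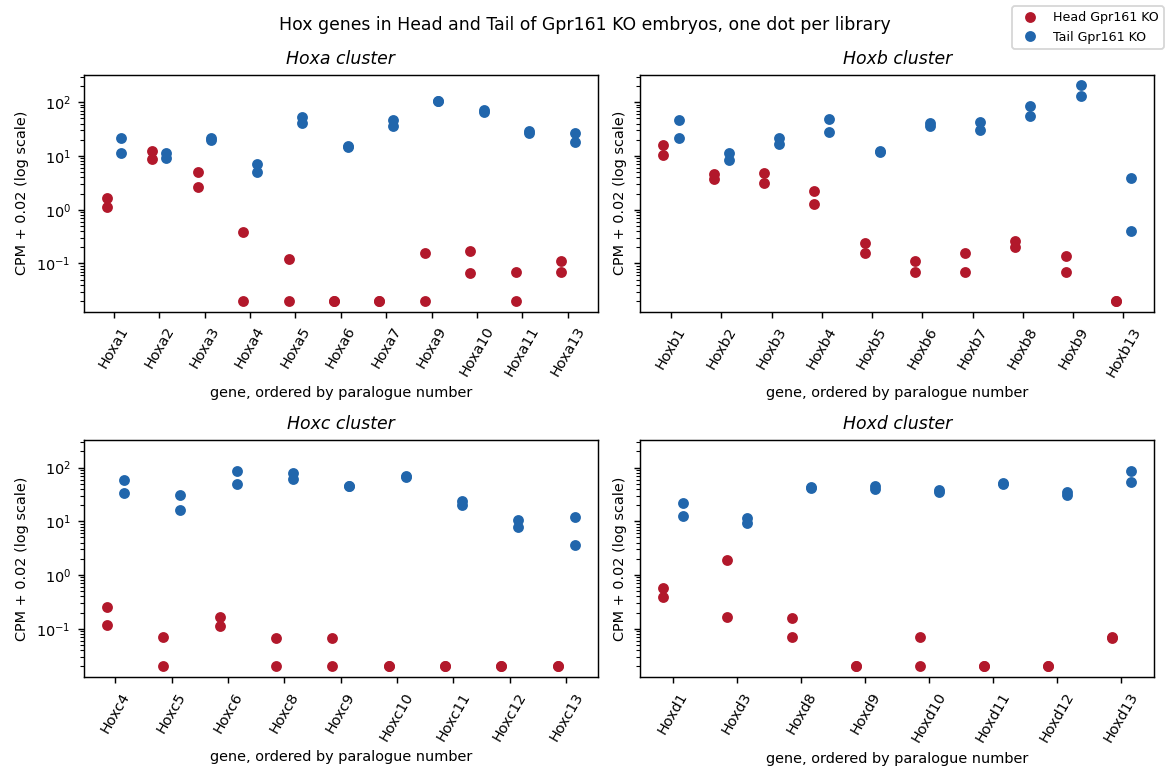
Level of each Hox gene in the 2 Head and 2 Tail libraries of Gpr161 KO, as CPM plus an offset of 0.02 on a log scale, in order along each cluster. Head and Tail lie together at Hoxa2 and come apart towards the posterior genes, where the Head points sit at or near the offset.

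Hoxb8, a gene of the middle of its cluster, had 0.246 and 0.186 CPM in Head, against 85.6 and 55.5 CPM in Tail of Gpr161 KO (log2 fold change -8.33 ± 0.67, adjusted p = 8.3e-05). Its promoter is printed because it is the 1 of 23 Hox promoters in the RefSeq table (4.348%) that holds the word TTTATNG, which CDX factors of the tail bud recognise. The word was searched on both strands and stood in 3584 of 32851 promoters of this length (10.91%). The sequence, from RefSeq on build GRCm38.p6 at chr11:96281655-96281954 on the plus strand, runs from 250 bases before to 50 after the start site. The 3 matches are in capitals and begin 199, 120 and 110 bases before the start site.
Hoxb8: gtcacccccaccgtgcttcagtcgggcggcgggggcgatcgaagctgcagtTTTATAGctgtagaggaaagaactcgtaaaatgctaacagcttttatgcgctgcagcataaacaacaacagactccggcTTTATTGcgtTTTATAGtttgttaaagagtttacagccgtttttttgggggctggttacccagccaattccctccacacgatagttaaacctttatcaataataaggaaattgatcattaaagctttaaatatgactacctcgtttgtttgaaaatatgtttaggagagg

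The tail bud and axial progenitor genes had the same direction as the Hox genes. Of 25 tested, 13 were lower in Head of Gpr161 KO and none was higher, with a median log2 fold change of -1.01. In WT 10 were lower. The blocked fit called 1 higher and 15 lower in Gpr161 KO and 0 and 10 in WT. With single libraries left out, the count of lower genes was 8 without Head library 2.

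T, the Brachyury factor of primitive streak and notochord, had 0.665 and 0.465 CPM in Head, against 78.6 and 42.4 CPM in Tail (log2 fold change -6.74 ± 0.67, adjusted p = 0.00016). Cdx2, a caudal factor upstream of Hox genes, had 0.0985 and 0 CPM in Head, against 49.9 and 16.3 CPM in Tail (log2 fold change -9.34 ± 1.39, adjusted p = 0.0041). Cdx4, its relative, had 0 and 0 CPM in Head, against 31.5 and 12.2 CPM in Tail and was at least 620.2-fold lower in Head (adjusted p = 0.00082). Tail was above Head in every library of these 3, and Tail library 1 was above Tail library 2. Msgn1, which commits cells to presomitic mesoderm, had no count in Head and 8.08 and 7.98 CPM in Tail. It was at least 224-fold lower in Head (adjusted p = 0.00037). Tbx6, which acts with it, had 0.369 and 0.512 CPM in Head, against 17.4 and 11.5 CPM in Tail (log2 fold change -5.02 ± 0.63, adjusted p = 0.00045). Nkx1-2, a gene of neuromesodermal cells, had 0.0985 and 0.326 CPM in Head, against 13.6 and 5.09 CPM in Tail (log2 fold change -5.43 ± 0.82, adjusted p = 0.0018). The ligands were less divided. Wnt5a, which acts in elongation of the axis, was lower in Head (log2 fold change -1.01 ± 0.16, adjusted p = 0.0023). Wnt3a, of the tail bud and dorsal neural tube, had 6.16 and 8.98 CPM in Head, against 11.4 and 5.63 CPM in Tail and overlapped between the parts (log2 fold change -0.17 ± 0.34, adjusted p = 0.86). The Cdx2 call was lost without Head library 2 (adjusted p = 0.060).

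Evx1 and Sp8 were the 2 tail bud genes whose Head to Tail difference was called as different from WT. Evx1, a homeobox gene of the tail bud and of V0 interneurons, lies next to the Hoxa cluster. It had 0.148 and 0.303 CPM in Head, against 32.5 and 23.2 CPM in Tail of Gpr161 KO (log2 fold change -6.93 ± 0.56, adjusted p = 1.3e-05). In WT Evx1 had 2.29 and 2.28 CPM in Head, against 6.92 and 8.44 CPM in Tail (log2 fold change -1.75 ± 0.43, adjusted p = 0.040). The Tail libraries of Gpr161 KO were the highest of the 8 and its Head libraries the lowest. The difference between the comparisons was -5.18 ± 0.67 on the log2 scale (adjusted p = 0.019). Evx2, beside the Hoxd cluster, had 0 and 0.0465 CPM in Head, against 5.54 and 7.08 CPM in Tail of Gpr161 KO, and the Tail to Head ratio was 262, counting interval 72.2 to 2172 (adjusted p = 0.0036). In WT Evx2 had 0.897 and 1.55 CPM in Head, against 1.99 and 1.78 CPM in Tail, and its difference was not called (adjusted p = 0.14).

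The Evx1 promoter on GRCm38.p6, at chr6:52313248-52313547 on the plus strand, is printed for comparison with Hoxb8. Its capitals mark 1 match to the CDX word, on the opposite strand and 230 bases before the start site. The word stood in 7 of 26 promoters of tail bud genes (26.92%). It stood in 51 of 400 promoters of genes called lower in Head (12.75%) and in 69 of 1023 promoters of genes called higher (6.745%).
Evx1: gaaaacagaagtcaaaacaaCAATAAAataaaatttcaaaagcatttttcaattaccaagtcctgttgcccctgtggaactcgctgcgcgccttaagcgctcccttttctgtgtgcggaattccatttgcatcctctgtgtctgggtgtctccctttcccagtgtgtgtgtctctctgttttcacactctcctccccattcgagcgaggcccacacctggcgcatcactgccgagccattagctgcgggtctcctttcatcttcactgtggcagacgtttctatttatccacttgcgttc

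Somite genes also leaned to Tail. In the segmentation and somite list, 8 of 24 were lower in Head and 1 was higher in Gpr161 KO, with 5 lower in WT. Calls in the blocked fit were 3 higher and 10 lower in Gpr161 KO and 0 and 9 in WT. When 1 library was left out, the count of higher genes was 0 without Head library 2, 0 without Tail library 1 and 0 without Tail library 2, and the count of lower genes was 5 without Head library 2. Meox1, a factor of young somites, had 3.05 and 2.61 CPM in Head, against 115 and 89.3 CPM in Tail (log2 fold change -5.17 ± 0.29, adjusted p = 4.2e-07). Hes7, an oscillator of the segmentation clock, had 0.0985 and 0.163 CPM in Head, against 13.8 and 5.50 CPM in Tail (log2 fold change -6.17 ± 0.70, adjusted p = 0.00019). Tcf15, which makes somites epithelial, had 1.72 and 3.63 CPM in Head, against 30.8 and 23.0 CPM in Tail (log2 fold change -3.32 ± 0.37, adjusted p = 0.00019). The parts did not overlap for any of these. Aldh1a2, the enzyme that makes retinoic acid in trunk mesoderm, had 8.82 and 5.96 CPM in Head, against 91.9 and 131 CPM in Tail (log2 fold change -3.92 ± 0.47, adjusted p = 0.00074). The higher member was Tbx18, of anterior somite compartments and head mesenchyme (log2 fold change 1.49 ± 0.33, adjusted p = 0.017). The Tbx18 call was lost without Head library 2, Tail library 1 or Tail library 2 (adjusted p = 0.073 to 0.17).

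Of 32 limb bud genes, 10 were lower in Head and 2 higher in Gpr161 KO, against 7 and 2 in WT. Blocked by number, the calls were 4 higher and 15 lower in Gpr161 KO and 6 and 11 in WT, with 0 and 4 for the difference from WT (0 and 1 without the block). Tbx4, the hindlimb T-box factor, had 0.246 and 0.233 CPM in Head, against 41.6 and 52.99 CPM in Tail of Gpr161 KO (log2 fold change -7.61 ± 0.34, adjusted p = 7.5e-08). In WT Tbx4 had 0.964 and 0.657 CPM in Head, against 46.4 and 31.2 CPM in Tail (log2 fold change -5.57 ± 0.30, adjusted p = 2.7e-07). Both genotypes had Tail far above Head, and the difference of -2.04 ± 0.43 between them was called in the blocked fit alone (adjusted p = 0.11, and 0.0050 in the blocked fit). Pitx1, which acts with Tbx4 in the hindlimb and also marks oral ectoderm, had 38.2 and 32.7 CPM in Head, against 109 and 92.1 CPM in Tail (log2 fold change -1.504 ± 0.24, adjusted p = 0.0025). Tbx5, of the forelimb and heart, had 7.44 and 0.326 CPM in Head, against 6.82 and 5.11 CPM in Tail (log2 fold change -0.62 ± 0.98, adjusted p = 0.81). It overlapped between the parts, with Head library 1 far above Head library 2. Meis1, a proximal limb gene and Hox cofactor, was lower in Head (log2 fold change -1.52 ± 0.13, adjusted p = 1.8e-05).

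Genes of the forebrain and eye were mostly higher in Head. Of 30 tested, 19 were higher and 1 lower in Gpr161 KO, with a median log2 fold change of 3.83 (3.38 at the floor), and 20 were higher in WT. Otx2, needed for forebrain and midbrain, had 66.9 and 44.9 CPM in Head, against 0 and 0 CPM in Tail and was at least 1499.5-fold higher in Head (adjusted p = 0.00013). Six3, of the anterior forebrain and eye field, had 30.2 and 16.2 CPM in Head, against 0.0474 and 0 CPM in Tail, and Head was 929.7-fold higher, counting interval 257 to 7683. Six3os1, the antisense RNA at Six3, cannot be told from Six3 because the strand setting of the counts is not known. Rax, the retinal field gene, had 9.85 and 7.91 CPM in Head, against 0.0948 and 0 CPM in Tail (log2 fold change 7.42 ± 0.74, adjusted p = 8.1e-05). No reads or almost none were found in Tail for these. Emx1, of the dorsal telencephalon, had 1.97 and 2.09 CPM in Head, against 1.11 and 0.981 CPM in Tail of Gpr161 KO and was not called (log2 fold change 0.95 ± 0.49, adjusted p = 0.31). In WT Emx1 had 10.8 and 7.46 CPM in Head, against 2.25 and 0.869 CPM in Tail and was called (log2 fold change 2.55 ± 0.49, adjusted p = 0.010), but the difference between the comparisons was not (adjusted p = 0.84).

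Nkx2-1, a factor of ventral forebrain and hypothalamus that depends on Shh, was among the 12 genes with the widest Head excess. It had 45.4 and 42.7 CPM in Head, against 0.0948 and 0 CPM in Tail of Gpr161 KO (log2 fold change 9.72 ± 1.08, adjusted p = 0.00093), and 21.2 and 21.9 CPM in Head, against 0 and 0 CPM in Tail of WT. Nkx2-4, a close relative, had 14.1 and 14.6 CPM in Head, against 0.0474 and 0 CPM in Tail of Gpr161 KO, and 3.34 and 2.35 CPM in Head of WT. The Head libraries of Gpr161 KO lay above those of WT for both genes, and the difference of the comparisons was not called (adjusted p = 1.00 for Nkx2-1). The Nkx2-1 promoter on GRCm38.p6, at chr12:56536859-56537158 on the minus strand, is printed because it is the 1 of 30 promoters of forebrain genes (3.333%) with the core word of the Gli site, GACCACC. The match, in capitals, is on the opposite strand 65 bases before the start site. On both strands the word stood in 919 of 32851 promoters (2.797%), in 32 of 1023 promoters of genes called higher in Head (3.128%) and in 0 of 17 promoters of Hedgehog targets.
Nkx2-1: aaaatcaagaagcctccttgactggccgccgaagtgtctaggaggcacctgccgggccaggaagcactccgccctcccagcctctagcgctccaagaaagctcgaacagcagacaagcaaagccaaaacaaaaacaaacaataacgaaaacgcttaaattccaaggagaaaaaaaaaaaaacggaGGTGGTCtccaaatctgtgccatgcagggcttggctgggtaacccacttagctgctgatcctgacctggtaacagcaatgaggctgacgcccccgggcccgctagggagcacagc

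Behind the forebrain, 10 of 23 midbrain and hindbrain genes were higher in Head and 2 lower in Gpr161 KO, with a median log2 fold change of 2.11 (1.81 at the floor). In WT 5 were higher and none was lower. With the block there were 11 higher and 2 lower in Gpr161 KO and 7 and 1 in WT, with 3 and 2 for the difference from WT (0 and 0 without the block). On leaving out 1 library, the count of higher genes was 6 without Tail library 1, and the count of lower genes was 0 without Head library 1, 0 without Head library 2 and 0 without Tail library 1. En2, of the midbrain and cerebellar border, had 11.3 and 20.3 CPM in Head, against 0.521 and 0.904 CPM in Tail (log2 fold change 4.48 ± 0.51, adjusted p = 0.00039). Pax5, its partner there, had 8.84 and 6.61 CPM in Head, against 0.0711 and 0.103 CPM in Tail (log2 fold change 6.43 ± 0.79, adjusted p = 0.00055). Wnt1, of the midbrain border and dorsal neural tube, had 12.5 and 13.0 CPM in Head, against 2.44 and 1.65 CPM in Tail of Gpr161 KO (log2 fold change 2.63 ± 0.44, adjusted p = 0.0031). In WT Wnt1 had 7.42 and 6.76 CPM in Head, against 10.48 and 7.48 CPM in Tail (log2 fold change -0.34 ± 0.41, adjusted p = 0.85). Head was above Tail in each Gpr161 KO library and below it in WT, where the nearest libraries had 7.42 CPM in Head and 7.48 CPM in Tail. The difference of the comparisons missed the threshold (adjusted p = 0.086). Gbx2, on the hindbrain side of the border and in the tail, was lower in Head (log2 fold change -1.71 ± 0.41, adjusted p = 0.022). The Gbx2 call was lost without Head library 1, Head library 2 or Tail library 1 (adjusted p = 0.12 to 0.19).

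In the branchial arch and face list, 11 of 38 genes were higher in Head and 7 lower, with a median log2 fold change of 0.31, against 10 and 3 in WT. The blocked fit called 13 higher and 7 lower in Gpr161 KO and 15 and 4 in WT, with 1 and 2 for the difference from WT (0 and 0 without the block). With single libraries left out, the count of lower genes was 3 without Head library 1, 4 without Head library 2, 3 without Tail library 1 and 2 without Tail library 2. Tbx1, the pharyngeal factor, had 74.8 and 92.4 CPM in Head, against 3.74 and 7.77 CPM in Tail of Gpr161 KO (log2 fold change 3.86 ± 0.57, adjusted p = 0.0022). In WT Tbx1 had 19.3 and 13.3 CPM in Head, against 3.73 and 6.31 CPM in Tail (log2 fold change 1.69 ± 0.53, adjusted p = 0.13). Head of Gpr161 KO was the high group, and the difference of the comparisons was not called (adjusted p = 0.59). Six2, of head mesenchyme, had 51.5 and 60.3 CPM in Head, against 4.12 and 6.35 CPM in Tail (log2 fold change 3.42 ± 0.30, adjusted p = 2.5e-05). Barx1, of jaw and stomach mesenchyme, had 14.5 and 12.2 CPM in Head, against 0.663 and 0.826 CPM in Tail (log2 fold change 4.16 ± 0.60, adjusted p = 0.0016). Lhx8, of jaw mesenchyme, had 1.72 and 2.56 CPM in Head, against 0 and 0.0516 CPM in Tail of Gpr161 KO, and Head was 87.2-fold higher, counting interval 23.8 to 725 (adjusted p = 0.00084). It had 17.4 and 16.9 CPM in Head of WT. Hand2, of arches, heart, limb and posterior mesoderm, was lower in Head (log2 fold change -1.98 ± 0.38, adjusted p = 0.0091) but not in the blocked fit (adjusted p = 0.083). Of 25 placode, ear, lens and pituitary genes, 8 were higher and 2 lower. They include Eya2, of placodes (log2 fold change 2.69 ± 0.29, adjusted p = 0.00014), and the lens gene Foxe3 (log2 fold change 4.84 ± 0.97, adjusted p = 0.0086). The Hand2 call was lost without Head library 2, Tail library 1 or Tail library 2 (adjusted p = 0.053 to 0.13). The Foxe3 call was lost without Tail library 2 (adjusted p = 0.10).

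Most Hedgehog targets did not pass the test between Head and Tail. Of 22 tested, 3 were higher in Head and 1 was lower in Gpr161 KO, with a median log2 fold change of 0.16. Calls in the blocked fit were 5 higher and 3 lower in Gpr161 KO and 5 and 1 in WT. For none of the 22 was the difference from WT called in edgeR, and none reached an unadjusted p under 0.05 or a call in DESeq2. Ptch1, the receptor that Gli induces as negative feedback, had 484 and 479 CPM in Head, against 545 and 532 CPM in Tail of Gpr161 KO (log2 fold change -0.16 ± 0.25, adjusted p = 0.81). In WT Ptch1 had 136 and 162 CPM in Head, against 138 and 153 CPM in Tail. Gli1, an activator that is itself a target, had 80.3 and 88.9 CPM in Head, against 114 and 130.1 CPM in Tail of Gpr161 KO (log2 fold change -0.53 ± 0.18, adjusted p = 0.11). In WT Gli1 had 36.4 and 43.7 CPM in Head, against 38.2 and 45.9 CPM in Tail. Both Tail libraries of Gpr161 KO were above both Head libraries, and Gli1 was called lower in Head in the blocked fit (adjusted p = 0.0012). Hhip, the decoy receptor, had 40.8 and 58.8 CPM in Head, against 48.3 and 74.4 CPM in Tail of Gpr161 KO and overlapped (log2 fold change -0.30 ± 0.32, adjusted p = 0.69). In WT Hhip had 10.6 and 11.4 CPM in Head, against 14.9 and 15.0 CPM in Tail. For these 3 genes each Gpr161 KO library was above each WT library.

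The 4 targets that differed by region belong to several tissues, and none kept its call throughout. Foxl1, of gut and head mesenchyme, had 26.7 and 53.8 CPM in Head, against 10.45 and 17.4 CPM in Tail (log2 fold change 1.53 ± 0.37, adjusted p = 0.024). Cdh20, a cadherin, had 6.23 and 6.400 CPM in Head, against 1.52 and 1.81 CPM in Tail (log2 fold change 1.92 ± 0.35, adjusted p = 0.0050). Foxa2, of floor plate, notochord and endoderm, had 71.1 and 86.0 CPM in Head, against 33.6 and 31.6 CPM in Tail (log2 fold change 1.27 ± 0.35, adjusted p = 0.045). Head was above Tail in every library of these 3. Osr1, of intermediate and lateral mesoderm, had 4.06 and 10.1 CPM in Head, against 34.9 and 35.0 CPM in Tail and was the lower one (log2 fold change -2.30 ± 0.54, adjusted p = 0.024). It was not called in the blocked fit (adjusted p = 0.11). The Foxl1 call was lost without Head library 2, Tail library 1 or Tail library 2 (adjusted p = 0.053 to 0.37). The Cdh20 call was lost without Tail library 1 (adjusted p = 0.082). The Foxa2 call was lost without any 1 of the 4 libraries (adjusted p = 0.095 to 0.27). The Osr1 call was lost without Head library 1, Tail library 1 or Tail library 2 (adjusted p = 0.11 to 0.17). When 1 library was left out, the count of higher genes was 1 without Head library 2, 0 without Tail library 1 and 1 without Tail library 2, and the count of lower genes was 0 without Head library 1, 2 without Head library 2, 0 without Tail library 1 and 0 without Tail library 2.

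Upstream of the targets, 7 of 31 ligands, receptors and transducers were higher in Head of Gpr161 KO and 1 was lower, against 0 and 1 in WT. Blocked by number, the calls were 8 higher and 4 lower in Gpr161 KO and 4 and 3 in WT, with 2 and 1 for the difference from WT (0 and 0 without the block). Without the block, 6 were higher and 1 lower for the difference from WT at an unadjusted p under 0.05. On leaving out 1 library, the count of higher genes was 4 without Head library 1, 3 without Head library 2, 4 without Tail library 1 and 3 without Tail library 2. Shh, the ligand of notochord and floor plate, had 109 and 149 CPM in Head, against 34.0 and 37.2 CPM in Tail of Gpr161 KO (log2 fold change 1.86 ± 0.31, adjusted p = 0.0036). In WT Shh had 27.1 and 31.5 CPM in Head, against 13.5 and 19.3 CPM in Tail (log2 fold change 0.84 ± 0.31, adjusted p = 0.21), and it was called there in the blocked fit (adjusted p = 0.016). Adcy5, an adenylyl cyclase that feeds protein kinase A, had 19.5 and 21.1 CPM in Head, against 4.36 and 3.77 CPM in Tail of Gpr161 KO (log2 fold change 2.32 ± 0.29, adjusted p = 0.00040). In WT Adcy5 had 9.64 and 8.71 CPM in Head, against 8.45 and 6.34 CPM in Tail (log2 fold change 0.31 ± 0.28, adjusted p = 0.76). Head of Gpr161 KO was the highest group for both genes. The Adcy5 difference had an adjusted p of 0.076, or 0.0036 in the blocked fit. Scube1, of a family of secreted proteins that help release Hedgehog ligand, had 239 and 221 CPM in Head, against 81.0 and 93.5 CPM in Tail (log2 fold change 1.40 ± 0.18, adjusted p = 0.00049). Its difference from WT was called in the blocked fit alone (adjusted p = 0.27, and 0.0046 in the blocked fit). Gas1, a co-receptor that Hedgehog signalling represses, was the lower member, with 52.5 and 45.5 CPM in Head, against 119.7 and 112 CPM in Tail (log2 fold change -1.24 ± 0.16, adjusted p = 0.00062). The Gas1 difference had an adjusted p of 0.54, or 0.0079 in the blocked fit. Smo, the transducer in the cilium, had 274 and 274 CPM in Head, against 276 and 259 CPM in Tail and overlapped (log2 fold change 0.04 ± 0.13, adjusted p = 0.94). Gli2, the main activator, had 43.0 and 49.0 CPM in Head, against 53.3 and 56.7 CPM in Tail and was not called (log2 fold change -0.26 ± 0.14, adjusted p = 0.36). The Shh call was lost without Tail library 1 (adjusted p = 0.061).

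**Figure D4:**
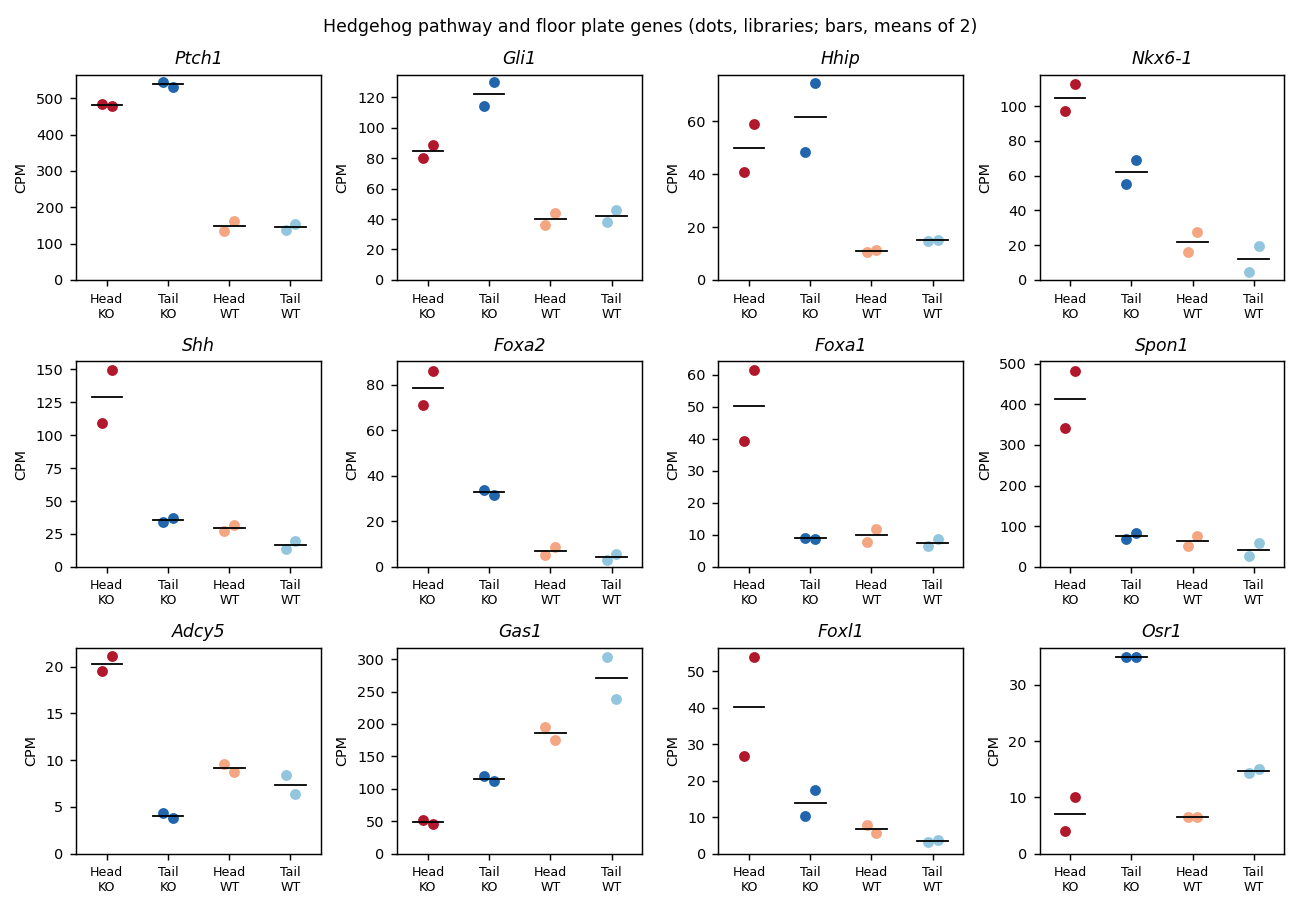
Levels (CPM) of Hedgehog pathway and ventral midline genes in Head and Tail of Gpr161 KO and of WT, with a dot per library and a bar at the mean of 2. Ptch1, Gli1 and Hhip were above WT in both parts of Gpr161 KO, while Shh, Foxa1, Spon1 and Adcy5 were higher in Head than in Tail of Gpr161 KO.

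Along the dorsoventral axis of the neural tube, 12 of 27 ventral genes were higher in Head of Gpr161 KO and 1 was lower, with a median log2 fold change of 1.63, against 4 and 1 in WT. With the block there were 13 higher and 3 lower in Gpr161 KO and 7 and 3 in WT, with 3 and 1 for the difference from WT (1 and 0 without the block). With single libraries left out, the count of higher genes was 7 without Head library 2, 6 without Tail library 1 and 7 without Tail library 2, and the count of lower genes was 0 without Head library 1, 0 without Head library 2 and 0 without Tail library 1. Foxa1, of the floor plate, had 39.1 and 61.4 CPM in Head, against 8.86 and 8.83 CPM in Tail of Gpr161 KO (log2 fold change 2.51 ± 0.35, adjusted p = 0.00086). In WT Foxa1 had 7.90 and 11.9 CPM in Head, against 6.46 and 8.69 CPM in Tail (log2 fold change 0.38 ± 0.33, adjusted p = 0.75). The Foxa1 difference had an adjusted p of 0.14, or 0.020 in the blocked fit. Spon1, a floor plate matrix protein, had 342 and 483 CPM in Head, against 69.0 and 82.2 CPM in Tail of Gpr161 KO (log2 fold change 2.45 ± 0.46, adjusted p = 0.010). Slit2, a midline guidance cue, had 229 and 336 CPM in Head, against 62.3 and 60.7 CPM in Tail of Gpr161 KO (log2 fold change 2.199 ± 0.26, adjusted p = 0.00033). In WT Slit2 had 86.3 and 98.8 CPM in Head, against 63.6 and 113 CPM in Tail (log2 fold change 0.07 ± 0.25, adjusted p = 0.97). The Head libraries of Gpr161 KO were the highest of the 8 for these 3 genes. For Slit2 the difference between the comparisons had an adjusted p of 0.0502, or 0.010 in the blocked fit. The Spon1 call was lost without Head library 2, Tail library 1 or Tail library 2 (adjusted p = 0.073 to 0.12).

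Progenitor genes of the next domains were not called. Nkx2-2, of V3 progenitors, had 8.45 and 10.4 CPM in Head, against 6.49 and 4.80 CPM in Tail (log2 fold change 0.73 ± 0.82, adjusted p = 0.71). Nkx6-1, of the ventral progenitors as a group, had 97.1 and 113 CPM in Head, against 55.2 and 68.8 CPM in Tail (log2 fold change 0.76 ± 0.72, adjusted p = 0.65). Olig2, the motor neuron progenitor gene, had 5.15 and 4.24 CPM in Head, against 14.9 and 18.5 CPM in Tail (log2 fold change -1.83 ± 0.88, adjusted p = 0.30). The libraries of Head and Tail did not overlap for any of the 3. Mnx1, of motor neurons, notochord and tail gut, was the lower member of the list (log2 fold change -5.43 ± 1.06, adjusted p = 0.012). Sim1, of V3 interneurons, somites and hypothalamus, had 12.1 and 15.5 CPM in Head, against 5.52 and 3.38 CPM in Tail of Gpr161 KO (log2 fold change 1.63 ± 0.32, adjusted p = 0.0074). In WT Sim1 had 5.25 and 4.74 CPM in Head, against 9.96 and 13.3 CPM in Tail (log2 fold change -1.22 ± 0.31, adjusted p = 0.051, and 0.0086 in the blocked fit). Head was above Tail in the mutant and below it in WT, and the difference was called (2.85 ± 0.45 on the log2 scale, adjusted p = 0.036). The Mnx1 call was lost without Head library 1, Head library 2 or Tail library 1 (adjusted p = 0.057 to 0.14). The Sim1 call was lost without Head library 2 or Tail library 2 (adjusted p = 0.072 to 0.11).

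Of 30 dorsal neural tube genes, 8 were higher in Head and 3 lower in Gpr161 KO, with a median log2 fold change of 0.86 (0.63 at the floor). In WT 1 was higher. The blocked fit called 11 higher and 4 lower in Gpr161 KO and 12 and 3 in WT, with 2 and 5 for the difference from WT (1 and 1 without the block). When 1 library was left out, the count of higher genes was 5 without Tail library 2. Pax7, of dorsal neural tube, neural crest and muscle precursors, had 2.32 and 2.05 CPM in Head, against 0.0948 and 0.0516 CPM in Tail of Gpr161 KO (log2 fold change 4.83 ± 0.50, adjusted p = 0.00011). In WT Pax7 had 21.1 and 20.7 CPM in Head, against 8.02 and 11.4 CPM in Tail (log2 fold change 1.11 ± 0.32, adjusted p = 0.090, and 0.0051 in the blocked fit). Both parts of Gpr161 KO lay below both parts of WT, with almost no reads in Tail. The difference was called (3.72 ± 0.62 on the log2 scale, adjusted p = 0.048). Msx3, another dorsal gene, had 3.498 and 3.54 CPM in Head, against 0.190 and 0.620 CPM in Tail of Gpr161 KO (log2 fold change 3.13 ± 0.45, adjusted p = 0.0011), and 22.2 and 22.4 CPM in Head, against 14.2 and 18.0 CPM in Tail of WT. Pax3, the relative of Pax7, had 5.71 and 6.26 CPM in Head, against 7.87 and 8.24 CPM in Tail of Gpr161 KO (log2 fold change -0.43 ± 0.16, adjusted p = 0.15), and 38.9 and 34.7 CPM in Head, against 55.5 and 54.7 CPM in Tail of WT (log2 fold change -0.58 ± 0.15, adjusted p = 0.058, and 0.012 in the blocked fit).

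Genes of the dorsal list that were lower in Head include Rspo3 and Wnt3. Rspo3, a secreted enhancer of Wnt signalling, had 5.10 and 4.45 CPM in Head, against 24.9 and 19.4 CPM in Tail of Gpr161 KO (log2 fold change -2.21 ± 0.28, adjusted p = 0.00045). In WT Rspo3 had 21.1 and 13.8 CPM in Head, against 16.5 and 18.5 CPM in Tail and overlapped. Its difference had an adjusted p of 0.055, or 0.0044 in the blocked fit. Wnt3, a ligand, had 1.13 and 2.44 CPM in Head, against 7.58 and 7.41 CPM in Tail of Gpr161 KO (log2 fold change -2.06 ± 0.32, adjusted p = 0.0019). In WT Wnt3 had 11.5 and 9.55 CPM in Head, against 10.7 and 7.94 CPM in Tail and overlapped as well. The Wnt3 difference had an adjusted p of 0.076, or 0.0048 in the blocked fit.

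Sp8, a zinc finger factor of forebrain, limb ectoderm, tail bud and interneuron progenitors, had 3.97 and 3.07 CPM in Head, against 20.4 and 21.5 CPM in Tail of Gpr161 KO (log2 fold change -2.57 ± 0.24, adjusted p = 3.9e-05). In WT Sp8 had 22.9 and 27.9 CPM in Head, against 18.7 and 24.9 CPM in Tail (log2 fold change 0.22 ± 0.22, adjusted p = 0.80). The Head libraries of Gpr161 KO were the lowest of the 8, far below the other 6. The difference was called (-2.79 ± 0.32 on the log2 scale, adjusted p = 0.0079), and again in 16 of 19 other settings, the most of the 20 genes. It was also the single forebrain gene lower in Head. Of 17 intermediate neural tube genes, 6 were higher and 3 lower in Head, against 2 and 1 in WT. Calls in the blocked fit were 7 higher and 3 lower in Gpr161 KO and 2 and 2 in WT, with 3 and 2 for the difference from WT (1 and 2 without the block). Without Tail library 2, 3 were higher. Dbx1, of the p0 domain, had 26.7 and 30.0 CPM in Head, against 0.0948 and 0 CPM in Tail of Gpr161 KO (log2 fold change 9.08 ± 1.26, adjusted p = 0.0023). In WT Dbx1 had 32.0 and 35.1 CPM in Head, against 2.13 and 12.6 CPM in Tail (log2 fold change 2.19 ± 0.75, adjusted p = 0.19), and its difference was not called (adjusted p = 0.19). Pax6, of the intermediate progenitors and the eye, had 2.69 and 4.72 CPM in Head, against 3.65 and 4.85 CPM in Tail of Gpr161 KO and overlapped (log2 fold change -0.19 ± 0.39, adjusted p = 0.86). In WT Pax6 had 74.2 and 72.3 CPM in Head, against 18.1 and 43.9 CPM in Tail, above each Gpr161 KO library.

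Of 25 neural crest and glial genes, 9 were higher in Head and 2 lower in Gpr161 KO, against 4 and 2 in WT, with a median log2 fold change of 0.45. Blocked by number, the calls were 11 higher and 3 lower in Gpr161 KO and 7 and 4 in WT. On leaving out 1 library, the count of higher genes was 4 without Tail library 1 and 4 without Tail library 2. Sox10, of migrating crest, glia and the ear, had 25.9 and 30.3 CPM in Head, against 2.37 and 1.498 CPM in Tail of Gpr161 KO (log2 fold change 3.86 ± 0.34, adjusted p = 2.7e-05). In WT Sox10 had 28.1 and 17.9 CPM in Head, against 19.4 and 24.2 CPM in Tail (log2 fold change 0.08 ± 0.30, adjusted p = 0.97). The Tail libraries of Gpr161 KO were the lowest of the 8, far below the other 6. The difference was called (3.78 ± 0.44 on the log2 scale, adjusted p = 0.0079) but not in the blocked fit (adjusted p = 0.069). Foxd3, an early crest factor, had 5.22 and 7.47 CPM in Head, against 1.90 and 1.63 CPM in Tail of Gpr161 KO (log2 fold change 1.85 ± 0.33, adjusted p = 0.0046). In WT Foxd3 had 2.56 and 3.496 CPM in Head, against 6.03 and 7.91 CPM in Tail (log2 fold change -1.20 ± 0.32, adjusted p = 0.061, and 0.0097 in the blocked fit). The parts were in opposite order in the genotypes, and the difference was called (3.05 ± 0.46 on the log2 scale, adjusted p = 0.033). Erbb3, the neuregulin receptor of crest and Schwann cell precursors, had 36.6 and 28.4 CPM in Head, against 12.6 and 11.1 CPM in Tail of Gpr161 KO (log2 fold change 1.46 ± 0.24, adjusted p = 0.0026). In WT Erbb3 had 26.4 and 18.5 CPM in Head, against 24.6 and 22.9 CPM in Tail (log2 fold change -0.08 ± 0.23, adjusted p = 0.96). Its difference had an adjusted p of 0.12, or 0.0044 in the blocked fit. Snai2, of crest and mesenchyme, was lower in Head (log2 fold change -1.44 ± 0.22, adjusted p = 0.0019), as was Twist1 (log2 fold change -0.80 ± 0.12, adjusted p = 0.0019). The Foxd3 call was lost without Head library 2 or Tail library 2 (adjusted p = 0.051 to 0.064).

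**Figure D5:**
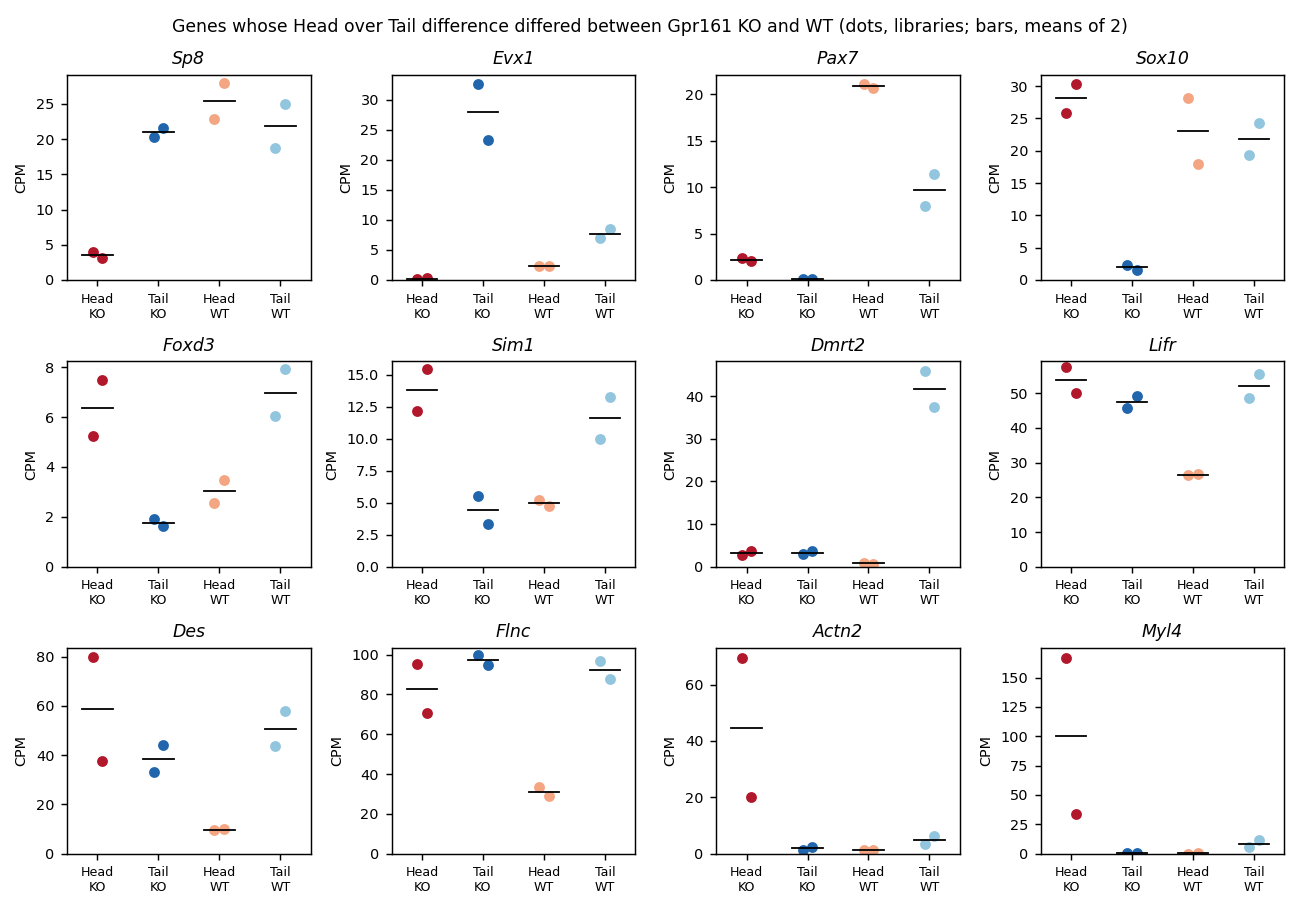
Levels (CPM) of 12 of the 20 genes whose Head over Tail difference differed between Gpr161 KO and WT, with a dot per library and a bar at the mean of 2. Sp8 was lowest in Head of Gpr161 KO, Sox10 and Pax7 were lowest in Tail of Gpr161 KO, and Evx1 was highest in Tail of Gpr161 KO.

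The calls for the difference between Gpr161 KO and WT depended on single libraries. The 16 higher and 4 lower genes became 6 and 1 without Head KO 1, 46 and 4 without Head KO 2, 2 and 1 without Tail KO 1, and 1 and 2 without Tail KO 2. Of the WT libraries, omission of Head WT 1 left 1 and 1, of Head WT 2 no gene either way, of Tail WT 1 6 and 2, and of Tail WT 2 2 and 1. The direction stayed the same for each of the 20 genes in all 19 other settings. Sp8 was called in each case but those without Head WT 2 (adjusted p = 0.058). Sox10 was called in each case but those without Tail KO 2 and Head WT 2 (adjusted p = 0.054 to 0.058). Dmrt2 was called in each case but those without Tail KO 1, Head WT 1 and Head WT 2 (adjusted p = 0.051 to 0.062). Evx1 was called without Head KO 2 or without Tail KO 2, and in no other case (adjusted p = 0.060 to 0.13). Des was called without Head KO 1 or without Head KO 2 or without Tail WT 1, and in no other case (adjusted p = 0.12 to 0.21). Myh6 was called without Head KO 1 or without Head KO 2 or without Tail WT 1, and in no other case (adjusted p = 0.15 to 0.21). Actn2 was called without Head KO 1 or without Head KO 2 or without Tail WT 1, and in no other case (adjusted p = 0.13 to 0.22). Myl4 was called without Head KO 2, and in no other case (adjusted p = 0.060 to 0.33). Pax7 was called without Head KO 2, and in no other case (adjusted p = 0.060 to 0.28). Flnc was called without Head KO 2, and in no other case (adjusted p = 0.10 to 0.23). Lifr was called without Head KO 2, and in no other case (adjusted p = 0.070 to 0.25). Foxd3 was not called without any 1 of the 8 (adjusted p = 0.051 to 0.23). Sim1 was not called without any 1 of the 8 (adjusted p = 0.060 to 0.23).

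Heart muscle genes were high in Head of Gpr161 KO. Of 24 cardiomyocyte genes, 17 were higher in Head and none lower, with a median log2 fold change of 6.66. In WT none was higher and 1 was lower, with a median of -1.27. With the block there were 17 higher and 0 lower in Gpr161 KO and 0 and 0 in WT, with 7 and 0 for the difference from WT (3 and 0 without the block). Myh6, the atrial myosin, had 326 and 55.9 CPM in Head, against 0.237 and 0.232 CPM in Tail of Gpr161 KO (log2 fold change 9.65 ± 1.00, adjusted p = 0.00035). In WT Myh6 had 0.471 and 0.329 CPM in Head, against 0.814 and 1.81 CPM in Tail (log2 fold change -1.71 ± 0.88, adjusted p = 0.46). Myl2, the ventricular light chain, had 159 and 33.1 CPM in Head, against 0.0474 and 0.103 CPM in Tail of Gpr161 KO (log2 fold change 10.28 ± 1.26, adjusted p = 0.00089). Hspb7, a muscle chaperone, had 39.9 and 7.94 CPM in Head, against 0 and 0 CPM in Tail and was at least 633-fold higher in Head (adjusted p = 0.0027). Head library 1 held several times the level of Head library 2 in each of these genes, and both were far above the Tail libraries. The difference from WT was called for Myh6 (11.36 ± 1.29 on the log2 scale, adjusted p = 0.019, and 0.012 in the blocked fit). It was called for Myl4, the atrial light chain (11.25 ± 1.62, adjusted p = 0.048), and Actn2, of the Z disc (6.50 ± 0.87, adjusted p = 0.026), but not in the blocked fit (adjusted p = 0.060 for Myl4 and 0.11 for Actn2). It was called in the blocked fit alone for Myl2 (adjusted p = 0.14, and 0.023 in the blocked fit) and for Hspb7 (adjusted p = 0.055, and 0.047 in the blocked fit).

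Summed over the 24 markers, the level was 2899 and 645 CPM in Head and 96.4 and 74.0 CPM in Tail of Gpr161 KO, against 16.1 and 23.2 CPM in Head and 112 and 208 CPM in Tail of WT. With single libraries left out, the count of higher genes was 10 without Head library 1, 9 without Tail library 1 and 10 without Tail library 2. Head was taken above the third branchial arches and Tail below the forelimbs, and the labels name the heart in neither part. How heart muscle RNA came into the Head libraries of Gpr161 KO was not tested. Without the 24 markers in the table, Gpr161 KO had 982 higher and 471 lower genes. The part of heart tissue in the other calls was not tested.

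Of 24 skeletal muscle genes, 3 were higher in Head and 1 lower in Gpr161 KO, with a median log2 fold change of 1.14 (0.91 at the floor). In WT 1 was higher and 7 were lower, with a median of -3.13. The blocked fit called 3 higher and 3 lower in Gpr161 KO and 2 and 11 in WT. Ttn, the giant sarcomere protein that heart shares, had 116 and 27.0 CPM in Head, against 0.521 and 0.981 CPM in Tail of Gpr161 KO (log2 fold change 6.57 ± 1.44, adjusted p = 0.025). In WT Ttn had 1.44 and 2.16 CPM in Head, against 9.69 and 31.4 CPM in Tail (log2 fold change -3.51 ± 1.24, adjusted p = 0.21). Des, the muscle intermediate filament that heart also shares, had 79.9 and 37.7 CPM in Head, against 33.2 and 43.9 CPM in Tail of Gpr161 KO (log2 fold change 0.61 ± 0.29, adjusted p = 0.27). In WT Des had 9.60 and 9.93 CPM in Head, against 43.6 and 57.8 CPM in Tail (log2 fold change -2.38 ± 0.31, adjusted p = 0.00071). The difference for Des was called (2.99 ± 0.42 on the log2 scale, adjusted p = 0.029) but not in the blocked fit (adjusted p = 0.15). Both genes were highest in Head library 1, which also held the most heart RNA. The Ttn call was lost without Head library 1, Tail library 1 or Tail library 2 (adjusted p = 0.085 to 0.24).

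Myf5 and Myog, regulators of the skeletal programme, had under 5 CPM in each library of Gpr161 KO. Tbx1, a member of the same list, was far above that in Head, as given with the branchial arch genes. Myf5, which starts the programme, had 4.36 and 4.56 CPM in Head, against 1.33 and 2.69 CPM in Tail of Gpr161 KO (log2 fold change 1.15 ± 0.64, adjusted p = 0.37). In WT Myf5 had 1.35 and 0.986 CPM in Head, against 9.02 and 15.0 CPM in Tail (log2 fold change -3.36 ± 0.69, adjusted p = 0.017) and was not called in the blocked fit (adjusted p = 0.067). Myog, which drives differentiation into fibres and was added after its values were seen, had 0.246 and 0.0931 CPM in Head, against 0.806 and 0.878 CPM in Tail of Gpr161 KO (log2 fold change -2.30 ± 1.67, adjusted p = 0.52). In WT Myog had 0.0897 and 0.446 CPM in Head, against 18.4 and 34.5 CPM in Tail (log2 fold change -6.62 ± 1.63, adjusted p = 0.058). The blocked fit called Myog lower in Head of Gpr161 KO (adjusted p = 0.0021) and of WT (adjusted p = 9.5e-08). For Myog the difference between them had an adjusted p of 1.00, or 0.0059 in the blocked fit. Tail of WT was the high group for both. Dmrt2, a factor of the dermomyotome, had 2.69 and 3.75 CPM in Head, against 3.01 and 3.62 CPM in Tail of Gpr161 KO (log2 fold change -0.04 ± 0.40, adjusted p = 0.98). In WT Dmrt2 had 0.852 and 0.751 CPM in Head, against 45.9 and 37.3 CPM in Tail (log2 fold change -5.69 ± 0.48, adjusted p = 2.1e-05). Its difference was called (5.65 ± 0.61 on the log2 scale, adjusted p = 0.0079). Tail of WT stood far above the other 3 groups, and the Gpr161 KO parts overlapped.

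For Lifr and Flnc the difference was called without a call within Gpr161 KO. Lifr, the receptor of leukaemia inhibitory factor, had 57.6 and 49.9 CPM in Head, against 45.9 and 49.1 CPM in Tail of Gpr161 KO (log2 fold change 0.18 ± 0.13, adjusted p = 0.53). In WT Lifr had 26.4 and 26.7 CPM in Head, against 48.6 and 55.7 CPM in Tail (log2 fold change -0.97 ± 0.14, adjusted p = 0.0011), and the difference was 1.15 ± 0.19 (adjusted p = 0.048). Flnc, a muscle filamin, had 95.1 and 70.7 CPM in Head, against 99.6 and 94.9 CPM in Tail of Gpr161 KO (log2 fold change -0.23 ± 0.15, adjusted p = 0.45). In WT Flnc had 33.4 and 28.9 CPM in Head, against 96.6 and 87.7 CPM in Tail (log2 fold change -1.56 ± 0.15, adjusted p = 6.5e-05), and the difference was 1.33 ± 0.21 (adjusted p = 0.036). Head of WT was the lowest group for both.

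Of 30 neuronal differentiation genes, 12 were higher and none lower in Head of Gpr161 KO, with a median log2 fold change of 2.00, against 3 higher in WT. Calls in the blocked fit were 15 higher and 2 lower in Gpr161 KO and 6 and 2 in WT. The difference from WT was called for none in edgeR with the main settings, and none reached an unadjusted p under 0.05 or a call in DESeq2. It was above 0 for 29 genes and below for 1, with a median of 0.80, and 1 other setting called some members higher. When 1 library was left out, the count of higher genes was 2 without Head library 2, 1 without Tail library 1 and 3 without Tail library 2. Gap43, a growth cone protein, had 85.0 and 119 CPM in Head, against 39.3 and 31.1 CPM in Tail (log2 fold change 1.53 ± 0.17, adjusted p = 0.00018). Nefm, a neurofilament, had 247 and 448 CPM in Head, against 14.0 and 20.8 CPM in Tail (log2 fold change 4.32 ± 0.88, adjusted p = 0.019). Tubb3, neuronal tubulin, had 205 and 323 CPM in Head, against 34.7 and 40.3 CPM in Tail and missed the threshold with no overlap (log2 fold change 2.82 ± 0.80, adjusted p = 0.073). Of 18 neural progenitor genes, 2 were higher and 1 lower in Gpr161 KO, and the blocked fit called 8 higher and 1 lower in Gpr161 KO and 7 and 0 in WT, with 0 and 1 for the difference from WT (0 and 0 without the block). Sox2, of neural progenitors, had 187 and 169 CPM in Head, against 82.7 and 79.6 CPM in Tail (log2 fold change 1.14 ± 0.34, adjusted p = 0.074) and was called higher in the blocked fit (adjusted p = 0.033). The Nefm call was lost without Head library 2, Tail library 1 or Tail library 2 (adjusted p = 0.11 to 0.20).

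Among signalling genes, 11 of 38 Wnt ligands and feedback genes were lower in Head of Gpr161 KO and 5 higher, with a median log2 fold change of -0.55, against 8 and 3 in WT. Blocked by number, the calls were 5 higher and 16 lower in Gpr161 KO and 6 and 12 in WT, with 1 and 6 for the difference from WT (0 and 0 without the block). On leaving out 1 library, the count of higher genes was 3 without Head library 1, 2 without Head library 2, 2 without Tail library 1 and 3 without Tail library 2. Wnt7a, a ligand of neural tube and limb, had 3.10 and 4.70 CPM in Head, against 18.0 and 17.9 CPM in Tail of Gpr161 KO (log2 fold change -2.200 ± 0.23, adjusted p = 0.00013). In WT Wnt7a had 11.8 and 13.8 CPM in Head, against 16.9 and 17.2 CPM in Tail (log2 fold change -0.42 ± 0.22, adjusted p = 0.47). Its difference had an adjusted p of 0.055, or 0.0044 in the blocked fit. Tcf7, a Wnt effector and target, was lower (log2 fold change -1.32 ± 0.14, adjusted p = 0.00013). Wnt8b, of the forebrain, was higher (log2 fold change 5.67 ± 0.69, adjusted p = 0.00038). Of 19 retinoic acid genes, 6 were lower and 3 higher, and for these the count of lower genes was 2 without Head library 1 and 3 without Tail library 2. Stra6, the retinol transporter, was lower (log2 fold change -1.48 ± 0.22, adjusted p = 0.0014). Cyp26c1, an enzyme that removes retinoic acid in head mesenchyme and hindbrain, had 82.1 and 71.4 CPM in Head, against 2.09 and 0.930 CPM in Tail of Gpr161 KO (log2 fold change 5.66 ± 0.79, adjusted p = 0.0020), and 23.0 and 12.6 CPM in Head, against 1.03 and 0.595 CPM in Tail of WT.

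Of 26 FGF genes, 5 were lower and none higher in Head of Gpr161 KO, and the blocked fit called 4 higher and 7 lower in Gpr161 KO and 2 and 5 in WT, with 0 and 1 for the difference from WT (0 and 0 without the block). With single libraries left out, the count of lower genes was 2 without Head library 1, 2 without Head library 2 and 2 without Tail library 1. Etv4, transcribed in response to FGF, was lower (log2 fold change -1.60 ± 0.17, adjusted p = 0.00010), as was Spry4, a feedback inhibitor (log2 fold change -1.47 ± 0.22, adjusted p = 0.0016). Of 34 BMP and TGF-beta genes, 5 were lower and 4 higher, and the blocked fit called 9 higher and 10 lower in Gpr161 KO and 4 and 11 in WT, with 1 and 2 for the difference from WT (0 and 0 without the block). For the BMP genes, the count of higher genes was 2 without Head library 2, 1 without Tail library 1 and 2 without Tail library 2, and the count of lower genes was 1 without Head library 2, 3 without Tail library 1 and 2 without Tail library 2. Bmp4 was lower in Head (log2 fold change -1.28 ± 0.33, adjusted p = 0.040) and Bmp7 higher (log2 fold change 0.99 ± 0.17, adjusted p = 0.0038). The Bmp7 difference from WT had an adjusted p of 0.35, or 0.040 in the blocked fit. The Bmp4 call was lost without any 1 of the 4 libraries (adjusted p = 0.16 to 0.21). The Bmp7 call was lost without Tail library 1 (adjusted p = 0.073).

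Lists for other cell types and states had few calls without the block, and the macrophage and cell cycle lists had many with it. In edgeR with the main settings none of 22 endothelial, 19 erythroid, 16 macrophage, 30 hypoxia and 22 cell cycle genes was called in Gpr161 KO. At an unadjusted p under 0.05, 1 endothelial gene was higher and 1 lower, 5 macrophage genes were higher and 5 cell cycle genes were lower. DESeq2 called 1 endothelial and 1 macrophage gene higher and 2 cell cycle genes lower. In the blocked fit 2 endothelial and 13 macrophage genes were higher in Head, 4 hypoxia genes were higher and 1 lower, and 10 cell cycle genes were lower. Over all genes tested, the blocked fit called 10.4% higher and 7.26% lower. All 19 erythroid genes leaned to Head in WT (log2 fold change 0.17 to 0.60) and in Gpr161 KO (0.33 to 0.73), where 1 other setting called some. The hypoxia genes summed to 41602 and 13788 CPM in Head of Fuz KO, which entered the estimate of spread. They summed to 22397 and 16312 CPM in Head of Gpr161 KO. Csf1r, the macrophage growth factor receptor, had 5.42 and 25.4 CPM in Head, against 1.16 and 3.87 CPM in Tail (log2 fold change 2.62 ± 0.96, adjusted p = 0.16, and 1.9e-05 in the blocked fit). Library 2 was above library 1 for it in both parts, and Head was above Tail within each number. The Csf1r difference from WT had an adjusted p of 1.00, or 0.023 in the blocked fit. Of 12 hepatocyte genes 3 were lower in Head, and the count of lower genes was 1 without Head library 1, 1 without Head library 2 and 1 without Tail library 1. In the blocked fit 5 were lower. Afp, the fetal liver protein, had 0.0493 and 0.0465 CPM in Head, against 3.32 and 0.775 CPM in Tail (log2 fold change -5.34 ± 1.09, adjusted p = 0.012). The Afp call was lost without Head library 1, Head library 2 or Tail library 1 (adjusted p = 0.096 to 0.13).

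Among the axial, mesodermal and endodermal lists, 7 of 17 notochord and floor plate genes were higher in Head of Gpr161 KO and 2 lower, 3 of 23 sclerotome and cartilage genes higher and 4 lower, 3 of 20 intermediate mesoderm genes higher and 4 lower, and 3 of 19 gut genes higher and 2 lower. Of 12 germ cell genes 2 were lower, as were 2 of 18 Trp53 targets. Over all genes tested, 4.70% were higher and 2.23% lower. Several of these counts moved with 1 library, as did the counts over all genes. Without Tail library 1, 3 notochord and floor plate genes were higher, and without any 1 of the 4 libraries 1 was lower. The lower intermediate mesoderm genes numbered 2 without Tail library 1 or Tail library 2, and 1 gut gene was lower without Head library 2. No germ cell gene was lower without Head library 1, Head library 2 or Tail library 1, and 1 was without Tail library 2. Of the Trp53 targets 1 was lower without Head library 1, Tail library 1 or Tail library 2. Blocked by number, 6 sclerotome and cartilage genes were higher, 5 gut genes higher and 5 lower, 1 germ cell gene higher, and 4 Trp53 targets higher and 5 lower. That fit called 10.4% of all genes tested higher and 7.26% lower.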

How the data were processed

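RNA from Head and Tail of E10.5 mouse embryos of 4 genotypes was sequenced in 16 libraries, 2 for each of 8 groups, after poly-A selection, per the labels' protocols. The authors deposited raw read counts per gene, with 54838 identifiers in each file and totals between 39062489 and 53680317. Build GRCm39 and the tools HTSeq, featureCounts 1.6.0, StringTie 2.0.4, Picard 2.20.4, STAR 2.7.1a, Trimmomatic and FastQC are listed in the submitters' processing notes, but which of them counted, and with which strand setting, is not given in the sources used here. Symbols came from the reference gene table and were found for 54723 identifiers. Without a strand setting, reads of overlapping antisense genes cannot be told apart.

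Counts of all 16 libraries were fitted by group (edgeR 4.0.16, R 4.3.3) with the robust quasi-likelihood test after filterByExpr and TMM scaling, and 21284 genes were tested in 3 comparisons: Head over Tail in Gpr161 KO, Head over Tail in WT and their difference. The procedure was tested on simulated data, with differences set in genes of at least 5 CPM. The simulated libraries were drawn independently, without the deviation that libraries of a number share here. The calls and false calls that follow hold for that setting. In Gpr161 KO, 31 of 50 genes set at a log2 of 1 and 47 of 50 set at 2 were called, with 8 false calls. For the difference from WT, 12 of 50 were called at 1, 39 at 2, 44 at 3 and 48 at 4, with 7 false calls. Small differences from WT would thus often be missed. CPM use the TMM-scaled totals. The standard error is the log2 fold change divided by the square root of the F statistic. Where a group had no count, the fold is a bound against 3 counts over that group. Where it had 1 to 3 counts, it is a ratio with a 95% counting interval, which covers counting error only. Bound and interval take single counts as independent. Most nonzero low counts were exactly 2, so counts may have come in pairs, which was not tested. In that case the intervals are too narrow and the bounds too high. For the genes tested, the difference of library 1 and library 2 correlated between Head and Tail in each genotype (Pearson r 0.196 for Gpr161 KO, 0.437 for Fuz KO, 0.282 for Fuz;Gpr161 DKO and 0.133 for WT, across genes, which are not independent replicates), so the numbers were taken to pair the libraries. The blocked fit has each genotype and number as 1 block.

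Gene lists and tests were chosen with earlier results of these data known. The text may name any member of the region, Hedgehog and patterning lists, of each other list up to 6 members by adjusted p and up to 4 by the difference from WT, and of all genes the 12 highest and 12 lowest by fold whose groups did not overlap and whose higher group had at least 5 CPM, and up to 10 each way of the difference. Genes without a proper name are counted but not named, and some other genes that the rule names are counted but not reported here. Xist, as a check of sex, and Myog were named outside this rule. Alternatives were RLE scaling, other filters, DESeq2 1.42.0, smaller fits, replicate blocks, removal of heart genes or of 51 haemoglobin and mitochondrial genes, and leaving out libraries. Promoters came from RefSeq tables on GRCm38.p6, another build than the counts, and were matched by symbol.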

Additional observations from a re-analysis of the deposited data

Results flagged for a closer look

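The Head over Tail difference of 20 genes was itself different between Gpr161 KO and WT (edgeR, adjusted p under 0.05). The values given for 17 of them are log2 differences, Gpr161 KO minus WT. Of genes described with the neural tube, neural crest and tail bud, Sox10 had 3.78, Pax7 3.72, Foxd3 3.05 and Sim1 2.85, while Evx1 had -5.18 and Sp8 -2.79. Of heart and muscle genes, Myh6 had 11.36, Myl4 11.25, Asb2 6.86, Actn2 6.50, Apobec2 6.01, Pygm 4.21, Myom1 4.12, Des 2.99 and Flnc 1.33. The remaining values were 5.65 for Dmrt2 and 1.15 for Lifr. For Asb2, Apobec2, Pygm and Myom1, Head library 1 of Gpr161 KO held the most reads, as it did for the heart markers, and the part of heart tissue in these values was not tested.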

How the results depend on the processing

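Counts of higher and lower genes in Gpr161 KO (1000 and 475) stayed within 1.5 times under RLE scaling, the 5 CPM filter, removal of haemoglobin, mitochondrial or heart genes and the additive replicate block. They were 1659 higher with no filter, 1503 and 794 in DESeq2, 1967 and 1748 with the Gpr161 KO and WT libraries alone, and 1648 and 1337 with the 4 Gpr161 KO libraries alone. With both libraries numbered 1 left out they were 155 and 107, and with both numbered 2 left out 153 and 110. Leaving out 1 library gave 294 to 663 higher and 198 to 242 lower. In WT (431 and 371) the counts were 967 and 721 with no filter, 821 and 592 in DESeq2, 895 and 794 with 8 libraries alone, and 135 to 395 and 144 to 249 with 1 library left out. For the difference (16 and 4) they were 360 and 79 with no filter, 183 and 44 in DESeq2, 86 and 25 with 8 libraries alone, 9 higher without the heart genes, 1 and 0 without both libraries numbered 1, 9 and 0 without both numbered 2, and 0 to 46 and 0 to 4 with 1 library left out. A replicate block gave 43 and 10 for the difference when additive, and within genotype 178 and 39, against 2215 and 1546 in Gpr161 KO and 1100 and 907 in WT. Blocked values stand beside the named genes whose printed call changed and the printed list counts that moved by over 1.5 times. Some settings also have fewer samples or more genes than the main one, and the cause of each change was not tested. The fits with the Gpr161 KO and WT libraries alone, or with the 4 Gpr161 KO libraries alone, leave out the other mutant groups and gave more calls in Gpr161 KO. With 1 library left out, the lone library of its group is assumed to vary like the others. Depth limits the lowest genes, since 3 counts correspond to 0.0359 CPM over both Head libraries of Gpr161 KO.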
